A study of Mus musculus with 19 samples.

Results

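The collagen genes of the mouse were followed through 3 experiments on the loss of MED1, a Mediator subunit through which many transcription factors reach RNA polymerase II. Members were the genes whose annotation gave a single symbol made of Col, a number, the letter a and a number, with the brightest transcript cluster used where a gene had several. This gave 44 of the 22180 genes measured with a single symbol: 11 fibrillar collagens, 6 basement membrane collagens and 27 others. RNA was measured on 19 Affymetrix arrays, and all levels below are log2 signals deposited by the authors. In the 8 cell arrays, MED1 knockout 3T3-L1 cells (2 arrays on day 2 and 2 on day 0 of fat cell differentiation) were set beside the wild-type line (2 arrays on each day). 3T3-L1 is a mouse fibroblast line that becomes fat-like after a hormone cocktail, day 0 being before it. The knockout was made with CRISPR/Cas9, and its arrays hold RNA pooled from individual clones, so that differences which arose in cloning cannot be told apart from the loss of MED1. Interscapular brown fat of embryos at E17.5 came from Myf5-Cre mice with both Med1 alleles floxed (4 knockout arrays) or with 1 floxed allele and 1 wild-type allele (3 control arrays). Both embryonic groups carry the Cre, which acts in precursors of skeletal muscle and brown fat. Interscapular brown fat at 10 weeks of age came from Med1 f/f mice that carried Adipoq-Cre, a driver active in mature fat cells (2 knockout arrays), or without a Cre (2 control arrays). The other cell types of the tissue keep Med1 under Adipoq-Cre.

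Collagens are proteins of 3 chains wound into a triple helix. Fibrillar collagens (I, II, III, V, XI, XXIV and XXVII) build the fibres of connective tissue and are made mainly by fibroblasts. Collagen IV builds the meshwork of basement membranes, the thin sheets around fat cells, muscle fibres and vessels. Collagen VI forms beaded filaments abundant in fat tissue, the fibril-associated collagens XII and XIV sit on the surface of fibres, and the multiplexins XV and XVIII lie in or next to basement membranes. When fibroblast-like precursors become fat cells, they are known to turn from a fibre-rich matrix to one built around basement membrane.

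Promoter sequences were available from RefSeq (build GRCm38.p6) for 35 of the 44 members, each 250 bases before to 50 bases after the annotated start. They are shown for the genes that passed the test over the 2 days in both genotypes (below) and that have an entry, so that the sequence next to each starting point can be seen. Col4a1 and Col4a2, the chains of the most widespread collagen IV, start on opposite strands of chromosome 8, with their 2 annotated starts 21 bases apart and each start inside the other gene. By the extents of the RefSeq gene table the 2 genes overlap by 85 bases. In the window of both starts (chr8:11312801-11312830, plus strand) the capitals mark the bases from one start to the other, which belong to both genes.

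Col4a1 and Col4a2: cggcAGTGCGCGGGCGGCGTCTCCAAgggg

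For 3 genes that were lower on day 2, the 250 bases before the start are given 5′ to 3′ on the strand of the gene. Capitals mark CCAAT boxes (CCAAT, or ATTGG on the other strand) and GC boxes (GGGCGG, or CCGCCC on the other strand). Col1a2 lies at chr6:4505368-4505617 on the plus strand, Col4a5 at chrX:141475169-141475418 on the plus strand and Col8a1 at chr16:57754738-57754987 on the minus strand.

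Col1a2: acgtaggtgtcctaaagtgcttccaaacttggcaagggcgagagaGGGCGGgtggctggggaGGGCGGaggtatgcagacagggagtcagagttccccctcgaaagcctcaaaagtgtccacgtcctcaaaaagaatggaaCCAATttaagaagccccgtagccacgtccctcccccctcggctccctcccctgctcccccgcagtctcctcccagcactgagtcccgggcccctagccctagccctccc

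Col4a5: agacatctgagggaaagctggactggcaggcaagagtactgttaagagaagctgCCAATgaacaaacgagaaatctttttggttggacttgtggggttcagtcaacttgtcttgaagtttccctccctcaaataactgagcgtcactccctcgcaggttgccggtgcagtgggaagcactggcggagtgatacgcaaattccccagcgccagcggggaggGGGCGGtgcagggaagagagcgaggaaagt

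Col8a1: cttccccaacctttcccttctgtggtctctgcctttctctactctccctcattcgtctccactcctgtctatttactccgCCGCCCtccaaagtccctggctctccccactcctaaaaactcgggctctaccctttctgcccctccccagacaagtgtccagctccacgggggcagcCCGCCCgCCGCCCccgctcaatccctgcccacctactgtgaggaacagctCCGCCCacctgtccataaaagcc

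A CCAAT box was found in 12 of the 35 collagen windows (34.3%), beside 37.9% of all 27025 windows of the same length. A GC box was found in 22 of 35 (62.9%), beside 35.9% of all windows, and TATAAA (or TTTATA) in 5 of 35 (14.3%), beside 14.2%. A match describes the letters of the window and shows no binding. Among the genes that moved together, Col1a2 and Col4a5 hold both boxes in the printed stretch, and Col8a1 holds GC boxes.

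The deposited table sits at a different level in each experiment (array medians of 4.69 to 4.79 in cells, 3.49 to 3.57 in embryonic and 2.87 to 2.89 in adult brown fat), so no level is set against another experiment. Replicate arrays correlated at 0.9848 or more across genes. Of the 44 members, Col6a5 in cells and Col11a1 in adult brown fat lay under the lower quartile of signals on every array, and are called dim. In the embryonic arrays, 22 of the 44 members and 57.2% of all genes had exactly the same deposited value on at least 2 arrays, against 0 members in the cell or adult arrays, where 1.88% and 2.84% of all genes did. None of the 3 collagen genes that passed the embryonic test was among them. The titles and source labels disagree on the day for 4 of the 8 cell arrays, those titled day 2 replicate 1 and day 0 replicate 2 of each genotype. Days follow the titles here, and the source label puts 1 array of each title day in every group. The labels do not say whether replicates came from separate cultures or animals, so the p-values reflect only how far these arrays spread, and their number limits the precision.

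Med1 itself was 6.996 to 7.161 in the 4 knockout and 8.23 to 8.55 in the 4 wild-type cell arrays, a log2 difference of -1.31 ± 0.08 (SE, limma adjusted p = 0.00108). In embryonic brown fat it read 6.997, 7.10, 7.10 and 6.88 in knockout and 6.94, 7.33 and 7.82 in control arrays, which overlap (-0.35 ± 0.19, limma adjusted p = 0.369). In adult brown fat it read 5.28 and 5.13 in knockout and 5.99 and 6.90 in control arrays (-1.24 ± 0.31, limma adjusted p = 0.19). The embryonic signal thus did not separate the genotypes, and whether the cluster's probes lie in the deleted exons is not given in the sources used here.

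Over the 2 days of differentiation both chains of the fibre-forming collagen I fell in both genotypes, as did Col4a5 and Col8a1, and the paired basement membrane chains Col4a1 and Col4a2 rose. In knockout cells 6 of 44 members passed limma's test (Benjamini-Hochberg over all 22180 genes, threshold 0.05), 2 higher and 4 lower on day 2, to be read beside 5.7% of all genes (2.14% higher and 3.57% lower). In wild-type cells 13 of 44 passed, 3 higher and 10 lower, beside 9.07% of all genes (3.44% higher and 5.64% lower). All 6 genes called in knockout cells were among the 13 called in wild-type cells (6 of 6 and 6 of 13). Of the fibrillar class, 2 of 11 fell in knockout cells and 5 of 11 in wild-type cells, and none rose. Of the basement membrane class, 2 of 6 rose and 1 of 6 fell in each genotype. The median log2 change of the fibrillar class was -0.33 in knockout and -0.30 in wild-type cells, beside 0.01 and 0.03 over all genes.

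Collagen I, the main protein of connective tissue fibres, fell in both genotypes. Col1a1, its alpha 1 chain, was 10.99 and 10.96 on day 2 against 12.18 and 11.81 on day 0 in knockout cells, a 2.03-fold fall (log2 fold change -1.02 ± 0.16 SE, limma adjusted p = 0.00652). In wild-type cells it was 10.79 and 10.66 on day 2 against 12.08 and 11.78 on day 0, a 2.31-fold fall (-1.21 ± 0.16, limma adjusted p = 0.00187). No day 2 array reached any day 0 array in either genotype. Its partner Col1a2 was 11.07 and 11.22 on day 2 against 11.88 and 11.84 on day 0 in knockout cells (-0.71 ± 0.12, 1.63-fold, limma adjusted p = 0.00987). In wild-type cells Col1a2 was 10.87 and 10.97 on day 2 against 11.94 and 11.88 on day 0 (-0.99 ± 0.12, 1.99-fold, limma adjusted p = 0.00116). The 2 chains thus moved the same way with no overlap of days. A second, dimmer transcript cluster of Col1a2 read 6.57 and 7.73 on day 2 against 7.77 and 8.48 on day 0 in knockout cells, and 6.17 and 7.90 on day 2 against 7.65 and 8.47 on day 0 in wild-type cells, where its days overlapped.

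Collagen III, which forms thin fibres together with collagen I, fell in wild-type cells. Col3a1 was 9.84 and 10.15 on day 2 against 11.29 and 10.95 on day 0 there (2.18-fold, -1.12 ± 0.18, limma adjusted p = 0.00506). In knockout cells it was 10.38 and 10.46 on day 2 against 11.31 and 10.92 on day 0, a difference of -0.69 that missed the threshold (limma adjusted p = 0.0634). The days did not overlap in either genotype. Collagen V starts fibres and sets their width. Its chain Col5a2 was 8.92 and 8.77 on day 2 against 9.65 and 9.25 on day 0 in knockout cells (-0.61, limma adjusted p = 0.0896). In wild-type cells Col5a2 was 8.56 and 8.41 on day 2 against 9.37 and 9.02 on day 0, and fell 1.64-fold (-0.71 ± 0.18, limma adjusted p = 0.0353). Its other chains did not pass: Col5a1 changed by -0.33 in knockout and -0.30 in wild-type cells, and Col5a3 by -0.25 and 0.16. Col11a1, a fibre-nucleating chain of collagen XI, fell 2.07-fold in wild-type cells (-1.05 ± 0.26, limma adjusted p = 0.0369) and had a value of -0.58 in knockout cells that did not pass. The remaining fibrillar members, Col2a1 and Col11a2 of cartilage and the minor chains Col24a1 and Col27a1, lay between -0.23 and 0.22 in both genotypes.

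The basement membrane chains that passed did not move one way. Col4a1 was 9.94 and 10.09 on day 2 against 8.78 and 8.52 on day 0 in knockout cells, a 2.57-fold rise (1.36 ± 0.14, limma adjusted p = 0.000715). In wild-type cells it was 10.13 and 10.23 on day 2 against 8.55 and 8.38 on day 0, a 3.28-fold rise (1.71 ± 0.14, limma adjusted p = 0.000128). Col4a2, which overlaps it at the bases shown above, was 9.61 and 9.65 on day 2 against 8.64 and 8.08 on day 0 in knockout cells (2.41-fold, 1.27 ± 0.20, limma adjusted p = 0.00697). Col4a2 was 9.68 and 9.82 on day 2 against 8.40 and 7.95 on day 0 in wild-type cells (2.99-fold, 1.58 ± 0.20, limma adjusted p = 0.00148). Every day 2 array lay above every day 0 array for both genes. Col4a5, a chain known from kidney and smooth muscle basement membranes, went the other way. It was 6.15 and 6.31 on day 2 against 7.66 and 7.44 on day 0 in knockout cells (2.50-fold lower, -1.32 ± 0.13, limma adjusted p = 0.000602). In wild-type cells it was 6.48 and 6.49 on day 2 against 7.97 and 7.99 on day 0 (2.83-fold lower, -1.50 ± 0.13, limma adjusted p = 0.000178). Col4a3, Col4a4 and Col4a6 did not pass, with values between -0.20 and 0.19.

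**Figure D1:**
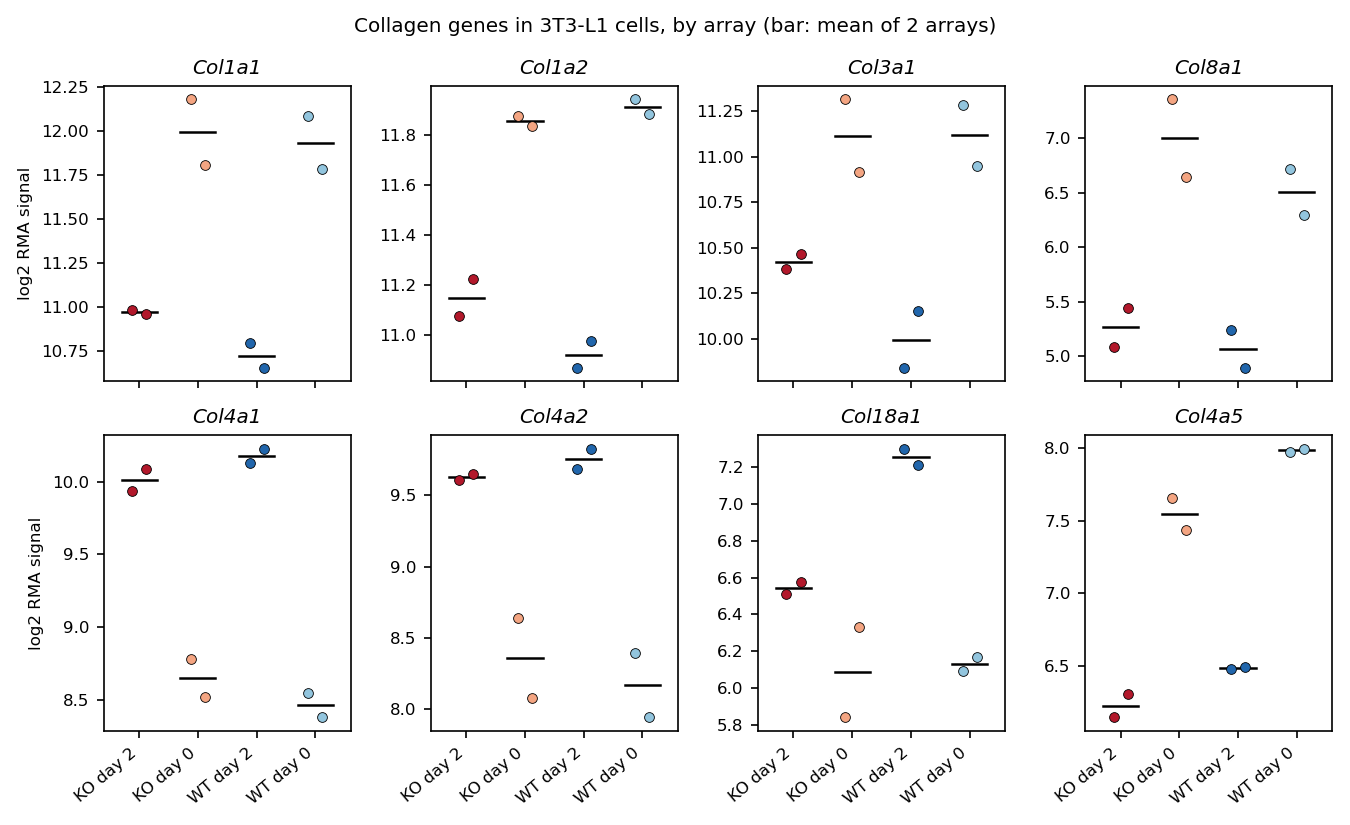
Log2 RMA signal of 8 collagen genes on the 8 cell arrays, by genotype and title day; points are arrays and bars the mean of 2. The fibre chains Col1a1, Col1a2 and Col3a1, with Col8a1 and Col4a5, sit lower on day 2 in both genotypes, and Col4a1, Col4a2 and Col18a1 sit higher.

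Among the 27 other collagens, 1 passed in knockout cells and 5 in wild-type cells. Col8a1, a short-chain collagen of vessel walls and of the cornea's Descemet membrane, was 5.09 and 5.45 on day 2 against 7.35 and 6.64 on day 0 in knockout cells (3.32-fold lower, -1.73 ± 0.25, limma adjusted p = 0.0041). In wild-type cells Col8a1 was 5.25 and 4.90 on day 2 against 6.72 and 6.29 on day 0 (2.70-fold lower, -1.44 ± 0.25, limma adjusted p = 0.00739). Its days did not overlap. Col18a1, whose end fragment is known as endostatin, was 6.51 and 6.58 on day 2 against 5.84 and 6.33 on day 0 in knockout cells, a difference of 0.46 that did not pass (limma adjusted p = 0.176). In wild-type cells Col18a1 was 7.30 and 7.21 on day 2 against 6.09 and 6.17 on day 0 and rose 2.18-fold (1.12 ± 0.16, limma adjusted p = 0.00281). Col12a1, which lies on fibres, fell 1.97-fold in wild-type cells (limma adjusted p = 0.0262), as did Col28a1 (1.77-fold, limma adjusted p = 0.0362) and the fibril-associated Col16a1 (1.42-fold, limma adjusted p = 0.0429). Their values in knockout cells were -0.18, 0.10 and -0.49, none of which passed. The filament chains Col6a1, Col6a2 and Col6a3 did not pass, with changes of 0.10, 0.14 and -0.41 in knockout cells and 0.17, 0.25 and 0.32 in wild-type cells, nor did Col15a1 with 0.19 in knockout and 0.09 in wild-type cells.

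These day results rest on the titles. With days by the source label, no member passed in either genotype, and Col4a1 had a difference of -0.0530 in knockout and -0.03375 in wild-type cells. That grouping mixes the title days, and the SE of Col4a1 under it was 0.84 in each genotype. By title, the highest day 0 array of Col4a1 read 8.78 and the lowest day 2 array 9.94. Over all genes, the lowest count among the settings that left out no array was also 0 in each genotype. In the 4 arrays on which both labels give the same day, 1 for each group and so without a test, all 6 members called in knockout cells and all 13 called in wild-type cells kept their sign. There Col4a1 differed by 1.31 in knockout and 1.68 in wild-type cells, and Col1a1 by -1.22 in knockout and -1.43 in wild-type cells. Without knockout day 2 replicate 1 the count in knockout cells was 3. Without wild-type day 0 replicate 1, or without wild-type day 2 replicate 2, the count in wild-type cells was 7. Leaving out any of the 8 arrays kept Col4a1, Col4a5 and Col8a1 past the threshold in knockout cells, and Col4a1, Col4a2, Col4a5, Col18a1, Col1a1, Col1a2 and Col3a1 in wild-type cells. Cell type markers differed between the days too. One list held 8 markers of fibroblasts and preadipocytes, the kind of cell that 3T3-L1 itself is. Their summed linear signal was 4774.4 to 5029 on day 2 against 7738.1 to 9374.6 on day 0 in knockout cells. In wild-type cells it was 6009.8 to 6558.9 on day 2 against 8901.9 to 10888 on day 0. Of the 8, 0 rose and 3 fell in knockout cells, and 1 rose and 2 fell in wild-type cells. Of 5 measured among 6 listed mature fat cell markers 1 rose in knockout and 4 rose in wild-type cells, with sums of 152.92 to 161.67 on day 2 against 118.49 to 122.89 on day 0 in knockout cells and of 257.03 to 295.96 on day 2 against 115.02 to 124.42 on day 0 in wild-type cells. Of these 13 markers none was dim. The 6 pericyte and smooth muscle markers summed to 847.79 to 1781.1 on day 2 against 2738.4 to 2952.8 on day 0 in knockout cells, and to 1164.5 to 1605.4 on day 2 against 3151.1 to 3563 on day 0 in wild-type cells, with Acta2 called lower in knockout (-1.35) and wild-type cells (-1.40) and Rgs5 dim. The call of Acta2 did not hold without any 1 of the 4 wild-type arrays in wild-type cells, nor in knockout cells without any 1 array other than knockout day 2 replicate 1. The part of these lists in the collagen result was not tested, and in bulk RNA fewer cells of a type and less RNA per cell cannot be told apart.

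Whether the day change differed between the genotypes was tested as knockout change minus wild-type change. Of 44 members 0 passed (0% of all genes), with 2 members higher and 3 lower at an unadjusted p under 0.05, beside 1.99% and 2.25% of all genes. Of the 13 genes called in wild-type cells, 12 had the same sign in knockout cells and Col28a1 did not. The difference of changes was -0.73 ± 0.20 for Col6a3 (limma adjusted p = 0.886), -0.67 ± 0.23 for Col18a1, 0.93 ± 0.29 for Col28a1 and 0.80 ± 0.32 for Col12a1, with a limma adjusted p of 1 for the last 3. For Col1a1 it was 0.19, for Col3a1 0.43, for Col4a1 -0.35 and for Col4a2 -0.32, while the median SE over the members was 0.22.

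**Figure D2:**
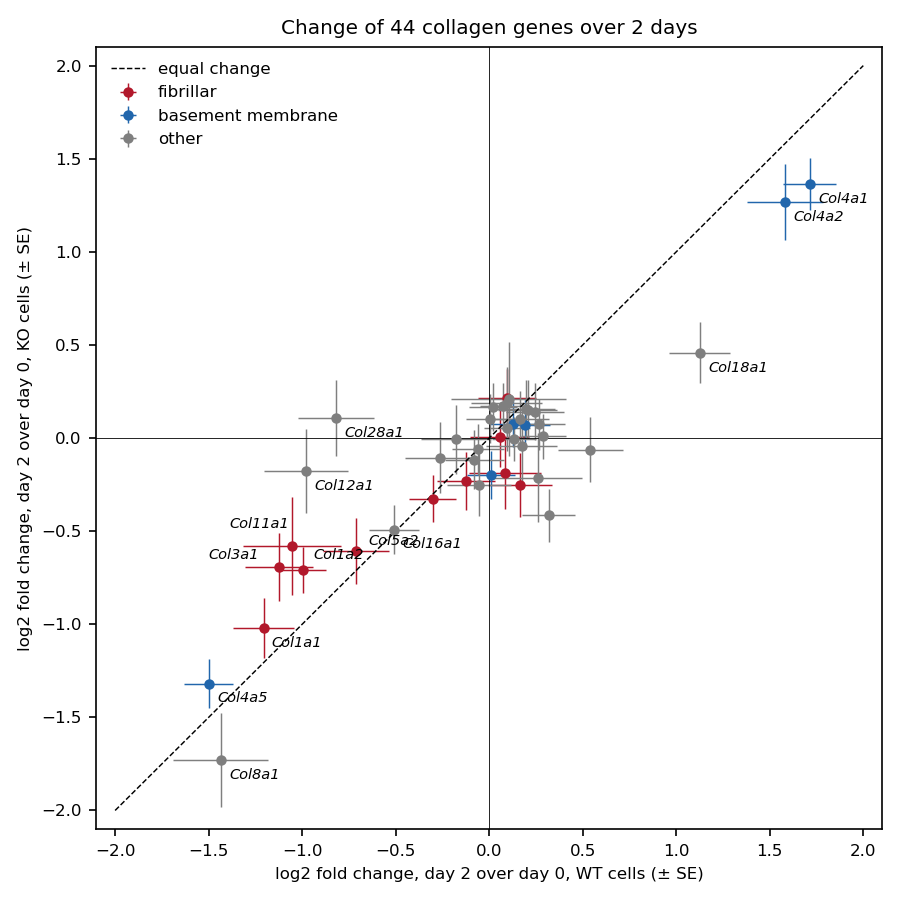
Log2 fold change of day 2 over day 0 for the 44 collagen genes in knockout cells (vertical axis) and wild-type cells (horizontal axis), with SEs from limma; colours give the class and the names the 13 genes called in wild-type cells. Col4a1 and Col4a2 lie at the upper right, the called fibrillar genes at the lower left, and Col28a1 and Col12a1 near 0 on the knockout axis.

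The genes that make and handle collagen moved both ways over the days. Of 27 measured genes for collagen synthesis, modification and processing, 2 rose and 2 fell in knockout cells, beside 2.14% and 3.57% of all genes. In wild-type cells 3 rose and 4 fell, beside 3.44% and 5.64% of all genes. P4ha3, a prolyl 4-hydroxylase subunit, fell in knockout (-1.03) and wild-type cells (-1.29), while P4ha2, another such subunit, rose by 0.61 in knockout and 0.70 in wild-type cells. Creb3l1, a transcription factor known to drive collagen I genes in bone, fell in wild-type cells (-1.57 ± 0.35, limma adjusted p = 0.0214), as did Sec24d, a coat protein of collagen-carrying vesicles (-0.76). Neither passed in knockout cells, but both were lower on day 2 there without overlap. In knockout cells Creb3l1 read 8.66 and 8.73 on day 2 against 10.41 and 9.32 on day 0, and Sec24d 8.53 and 8.82 against 9.33 and 9.09. P3h2, a prolyl 3-hydroxylase known to act on collagen IV, rose in wild-type cells (1.16 ± 0.20, limma adjusted p = 0.00637), being 5.73 and 5.70 on day 2 against 4.80 and 4.32 on day 0. It did not pass in knockout cells, at 4.34 and 4.84 on day 2 against 4.26 and 4.29 on day 0. Mia3, an export receptor for large collagens, rose in knockout cells (0.60) and Fkbp14, a folding enzyme, fell there (-0.73). Neither passed in wild-type cells, where both moved the same way without overlap. Mia3 read 9.19 and 8.93 on day 2 against 8.72 and 8.64 on day 0 in wild-type cells, and Fkbp14 7.53 and 7.76 against 8.32 and 8.06. Of 9 collagen receptors, Itga11, the fibroblast integrin chain for collagen I, fell in both genotypes. It was 5.74 and 5.68 on day 2 against 7.49 and 7.36 on day 0 in knockout cells (-1.72 ± 0.13, limma adjusted p = 0.000156). In wild-type cells it was 5.40 and 5.26 on day 2 against 7.21 and 7.34 on day 0 (-1.95 ± 0.13, limma adjusted p = 4.6e-05). Leaving out any 1 of the 8 arrays kept P4ha3 and Itga11 past the threshold in both genotypes and P3h2 in wild-type cells. P4ha2 was lost without any 1 knockout array in knockout cells (limma adjusted p up to 0.163) and without replicate 2 of either day in wild-type cells (up to 0.0687). Creb3l1 was lost without wild-type day 0 replicate 1 or either wild-type day 2 array (limma adjusted p up to 0.122), and Sec24d without either wild-type day 0 array or wild-type day 2 replicate 1 (up to 0.0833). Mia3 was lost without any 1 knockout array or either wild-type day 0 array (limma adjusted p up to 0.268), and Fkbp14 without knockout day 0 replicate 1 or either knockout day 2 array (up to 0.274).

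Between knockout and wild-type cells no collagen gene passed the test as fitted. Over the 4 pairs of arrays, 0 of 44 were called where 0.289% of all genes were, and 6 members were higher and 4 lower at an unadjusted p under 0.05, beside 5.61% and 6.72% of all genes. The same sign in all 4 pairs was found for 8 members higher (11% of all genes) and 4 lower (10.8% of all genes). Of the fibrillar class 5 of 11 were higher in every pair, among them Col5a2 (0.31 ± 0.08, limma adjusted p = 0.185) and Col11a1 (0.45 ± 0.11, limma adjusted p = 0.193). On day 0, 0 of 44 passed (0.185% of all genes), with 1 higher and 3 lower at an unadjusted p under 0.05, beside 2.01% and 2.88% of all genes. Col12a1 was 7.56 and 6.85 in knockout against 8.30 and 8.02 in wild-type cells on that day, a difference of -0.96 ± 0.23 that did not pass (limma adjusted p = 0.356). Col1a1 differed by 0.06 on day 0 and Col1a2 by -0.06, both less than their SEs.

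On day 2, 0 of 44 passed again (0.266% of all genes), with 2 higher and 2 lower at an unadjusted p under 0.05, beside 3.71% and 4.45% of all genes. Col6a3, the largest chain of collagen VI and the source of the fragment endotrophin, was 9.11 and 9.11 in knockout against 10.06 and 9.80 in wild-type cells (-0.82 ± 0.14, limma adjusted p = 0.0689). Col18a1 was 6.51 and 6.58 in knockout against 7.30 and 7.21 in wild-type cells (-0.71 ± 0.16, limma adjusted p = 0.212). Neither gene's arrays overlapped between genotypes, and neither passed in this fit. With the replicate number as a block Col6a3 passed (limma adjusted p = 0.0349), as it did with trend and robust fitting (limma adjusted p = 0.0337). Of the fibrillar class, 7 of 11 were higher on both knockout arrays than on both wild-type arrays and 0 lower, beside 17.4% of all genes higher and 18.9% lower. Col3a1 was 10.38 and 10.46 in knockout against 9.84 and 10.15 in wild-type cells (0.43, limma adjusted p = 0.592), and Col11a1 differed by 0.68 (limma adjusted p = 0.544). Col1a1 differed by 0.25, Col1a2 by 0.23, Col5a1 by 0.13, Col5a2 by 0.36, Col4a1 by -0.17 and Col4a2 by -0.13. Of the synthesis genes 0 of 27 and of the receptors 0 of 9 passed between genotypes on either day or over the pairs. Over the pairs, 2 synthesis genes were higher and 4 lower at an unadjusted p under 0.05. Of the receptors 4 were higher and 0 lower at that level, beside 5.61% and 6.72% of all genes. P4ha3 differed by 0.60 over the pairs (limma adjusted p = 0.0544) and P3h2 by -1.13 on day 2 (limma adjusted p = 0.0733). Of the 8 fibroblast markers, 3 had a positive and 5 a negative difference on day 2 (median -0.16), and 2 were called lower in knockout cells. These were Dcn, encoding the collagen-binding protein decorin (-1.96 ± 0.16, limma adjusted p = 0.00159), and Lum, encoding lumican (-1.28 ± 0.17, limma adjusted p = 0.0203). All 5 mature fat cell markers were negative (median -0.71), with 2 called lower, Fabp4 (-2.03, limma adjusted p = 0.0116) and Cidec (-1.46, limma adjusted p = 0.0158). The sums of that list on day 2 were 152.92 to 161.67 in knockout and 257.03 to 295.96 in wild-type cells. Dcn stayed past the threshold without any 1 of the 8 arrays. Lum and Cidec did not without either knockout day 2 array or wild-type day 2 replicate 2, nor Fabp4 without either knockout day 2 array or wild-type day 2 replicate 1. The part of these markers in the collagen values was not tested.

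**Figure D3:**
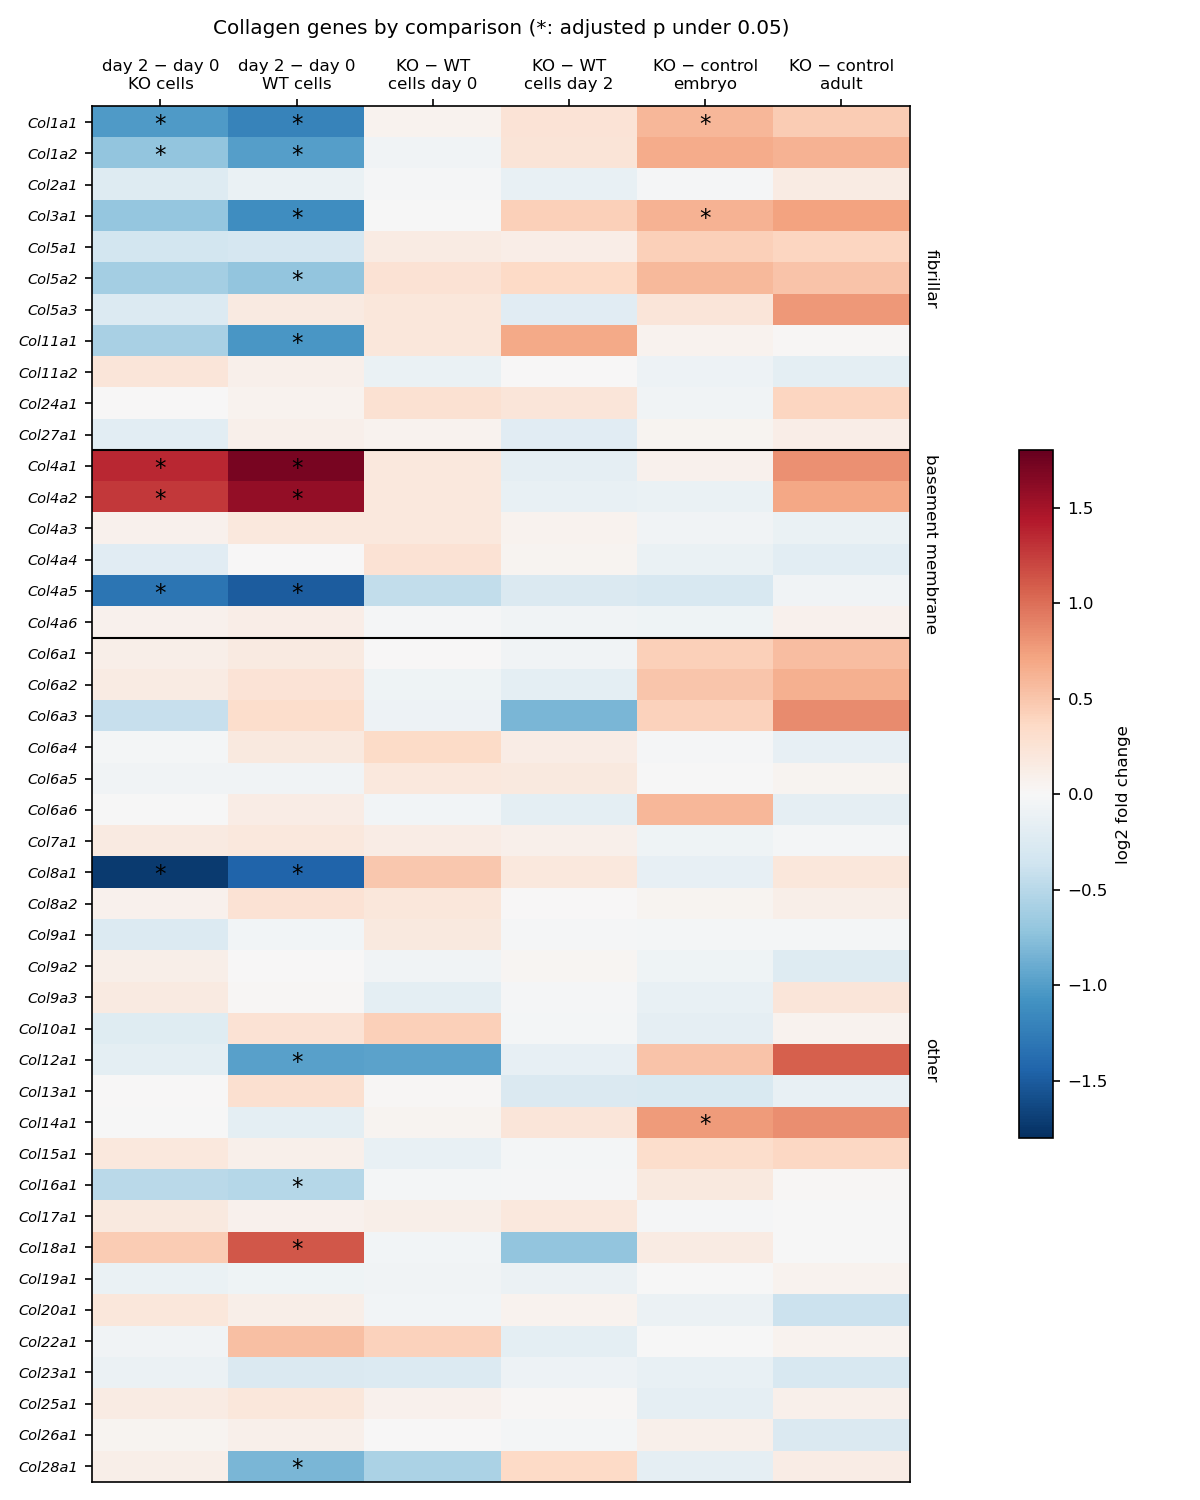
Log2 fold change of each of the 44 collagen genes in 6 comparisons, by class; red is higher and blue lower in the group named first, and a star marks a limma adjusted p under 0.05. The stars lie in the day comparisons and in the embryonic column, with none between knockout and wild-type cells or in the adult column.

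In embryonic brown fat, 3 collagens of fibres and their surface rose in the MED1 knockout. Of 44 members 3 were called higher and 0 lower, where 1.16% of all genes were called, 0.658% higher and 0.5% lower. At an unadjusted p under 0.05, 12 members were higher and 2 lower, beside 10.9% and 9.13% of all genes. On every knockout array 10 members were higher than on every control array and 1 was lower, beside 8.56% and 6.83% of all genes. Col1a1 was 10.71, 10.67, 10.77 and 10.80 in knockout against 10.25, 10.23 and 9.93 in control arrays and rose 1.52-fold (0.60 ± 0.09, limma adjusted p = 0.0459). Col3a1 was 10.38, 10.15, 10.21 and 10.31 in knockout against 9.74, 9.77 and 9.41 in control arrays (1.54-fold, 0.63 ± 0.10, limma adjusted p = 0.0481). Col14a1, which lies on collagen fibres, was 8.36, 8.18, 8.40 and 8.60 in knockout against 7.78, 7.65 and 7.44 in control arrays (1.70-fold, 0.76 ± 0.12, limma adjusted p = 0.046). In all 3 genes every knockout array lay above every control array.

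These calls were close to the threshold. Leaving out any 1 of the 7 arrays left no member called, and 0 of all genes in place of 257, so the loss was not particular to collagens. The limma adjusted p values were then 0.0515 to 0.122 for Col1a1, 0.056 to 0.134 for Col3a1 and 0.0515 to 0.135 for Col14a1. Over the same omissions the log2 fold change of Col1a1 stayed between 0.50 and 0.66, that of Col3a1 between 0.51 and 0.69 and that of Col14a1 between 0.67 and 0.84. Col1a2 was 10.10, 9.93, 9.88 and 9.99 in knockout against 9.56, 9.33 and 9.03 in control arrays, and missed the threshold (0.67, limma adjusted p = 0.0589). Col5a1 was 7.78, 7.78, 8.003 and 7.95 in knockout against 7.58, 7.49 and 7.28 in control arrays (0.43, limma adjusted p = 0.0728), and Col5a2 differed by 0.58 (limma adjusted p = 0.0935). A second, dimmer cluster of Col5a1 overlapped, at 4.69, 4.75, 4.60 and 4.67 in knockout against 4.67, 4.67 and 4.61 in control arrays. The dimmer cluster of Col1a2 did not, at 7.62, 7.30, 7.69 and 7.56 in knockout against 7.04, 6.45 and 6.13 in control arrays. Of the fibrillar class 5 of 11 were among those 10, and the class median was 0.22 beside -0.01 over all genes.

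The filament chains of collagen VI other than Col6a4 and Col6a5 ran higher in the embryonic knockout without passing. Col6a1 was 9.48, 9.61, 9.63 and 9.50 in knockout against 9.18, 9.27 and 8.92 in control arrays (0.43, limma adjusted p = 0.0695). Col6a2 was 8.03, 8.09, 8.05 and 7.94 in knockout against 7.61, 7.68 and 7.29 in control arrays (0.50, limma adjusted p = 0.0656). Neither overlapped between groups, whereas Col6a3 (7.84, 8.23, 8.55 and 8.48 in knockout against 7.69, 8.09 and 7.81 in control arrays, 0.41, limma adjusted p = 0.268) did. A second, dimmer cluster of Col6a1 read 7.54, 7.28, 7.71 and 7.19 in knockout against 7.04, 6.50 and 6.04 in control arrays, without overlap. Col6a6 had a mean of 7.51 in knockout against 6.91 in control arrays, without overlap. Col6a4 (means of 2.91 in knockout and 2.94 in control arrays) and Col6a5 (2.97 and 2.98) were not higher. The basement membrane class did not move with the higher chains: 0 of 6 were called and 0 of 6 were separated between groups. Col4a3, Col4a4 and Col4a6 each had an identical value on control and knockout arrays, so they could not be separated. Of the 6, 5 had negative differences, and Col4a5 (-0.29) was lower at an unadjusted p under 0.05, beside 9.13% of all genes. Col4a1 was 7.29, 7.65, 8.01 and 7.80 in knockout against 7.38, 7.67 and 7.80 in control arrays (0.07), and Col4a2 differed by -0.11. Col15a1 differed by 0.32 (limma adjusted p = 0.172) and Col18a1 by 0.15.

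**Figure D4:**
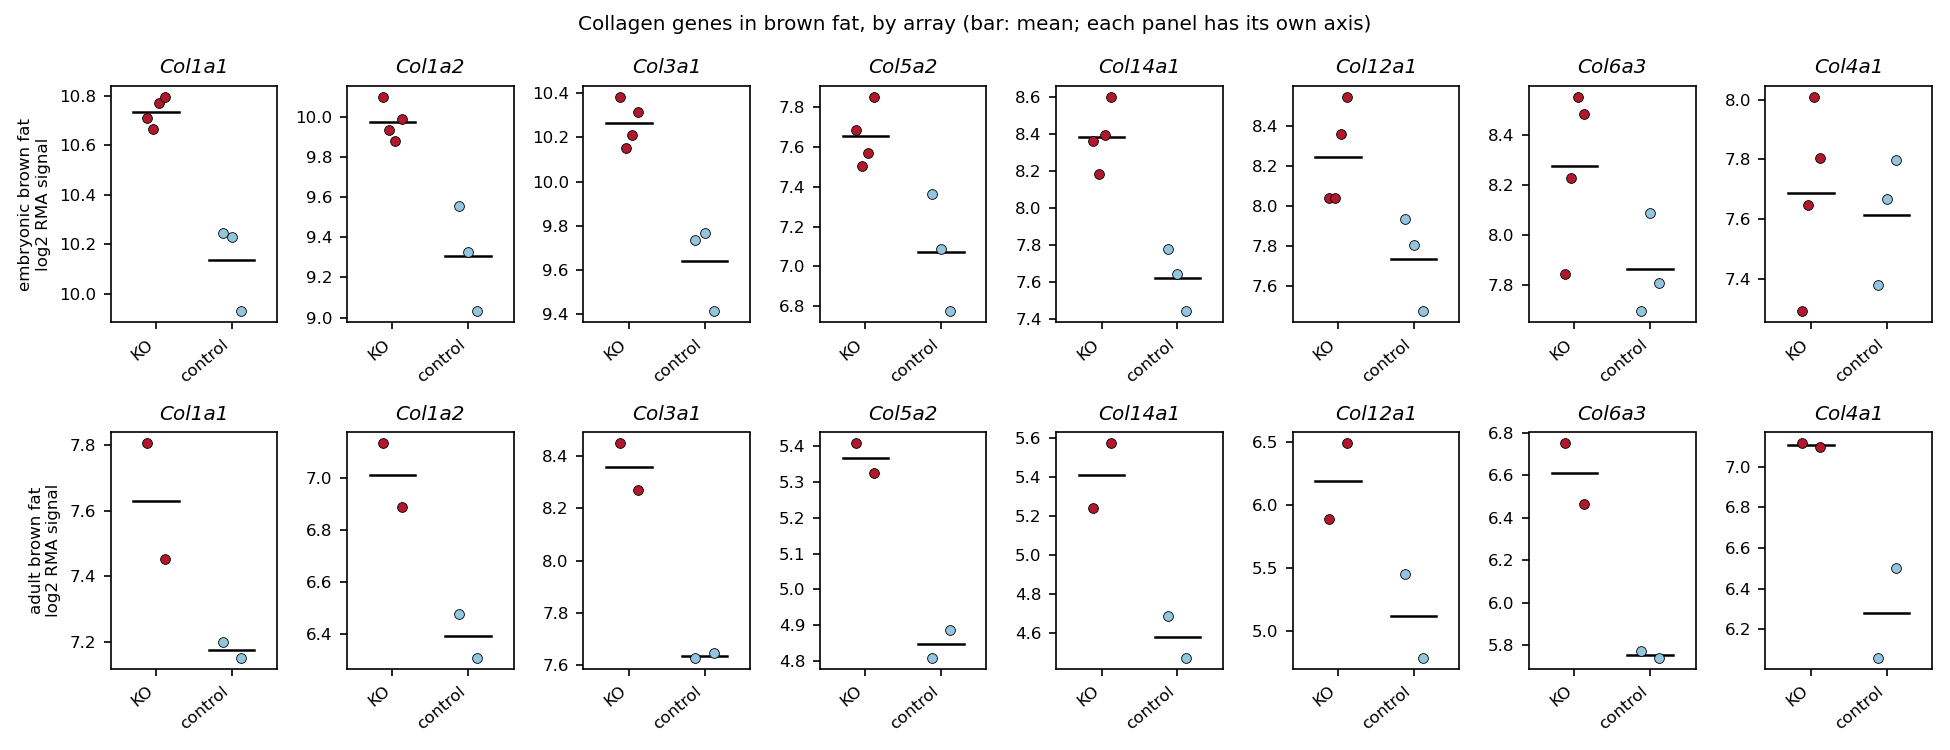
Log2 RMA signal of 8 collagen genes on the brown fat arrays, knockout left of control, with embryonic arrays in the upper and adult arrays in the lower row; points are arrays and bars the mean, and each panel has its own axis. Knockout arrays of Col1a1, Col1a2, Col3a1, Col5a2, Col14a1 and Col12a1 lie above the control arrays in both rows, while Col6a3 and Col4a1 overlap in the embryonic row.

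Of 27 measured synthesis and processing genes 3 rose in the embryonic knockout and 0 fell, beside 0.658% and 0.5% of all genes. A positive difference was found for 26 of 27 (median 0.30) and for 10234 of all 22180 genes. The exception was Tmem38b, an ion channel of the endoplasmic reticulum, which was lower on every knockout array than on every control array without passing (-0.48 ± 0.12, limma adjusted p = 0.0986). P4hb, which is protein disulfide isomerase and the beta subunit of prolyl 4-hydroxylase, was 9.38, 9.26, 9.07 and 9.30 in knockout against 8.79, 8.59 and 8.47 in control arrays (0.64 ± 0.10, limma adjusted p = 0.046). P3h1, a prolyl 3-hydroxylase of collagen I, was 6.70, 6.72, 6.66 and 6.70 in knockout against 6.35, 6.03 and 5.94 in control arrays (0.59 ± 0.10, limma adjusted p = 0.0481). Bmp1, the protease that trims the end of fibrillar procollagens, was 7.46, 7.43, 7.42 and 7.56 in knockout against 6.91, 6.85 and 6.45 in control arrays (0.73 ± 0.11, limma adjusted p = 0.046). Groups were separate for all 3. As for the collagens and every other called gene, none of these calls held when any 1 of the 7 arrays was left out. Their limma adjusted p values were then 0.0506 to 0.139. Of 9 receptors 0 were called, with 3 higher at an unadjusted p under 0.05, beside 10.9% of all genes.

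Markers of other cells differed between the embryonic groups too. All 8 fibroblast markers had positive differences with 0 called (median 0.64), and their summed linear signal was 4780.5 to 5458 in knockout against 2522.7 to 4068.3 in control arrays. At an unadjusted p under 0.05, 5 of the 8 were higher, beside 10.9% of all genes. All 8 skeletal muscle markers were positive with 0 called (median 1.24) and 7 higher at that level. Their sums were 3195.5 to 3728.4 in knockout and 714.38 to 2141.7 in control arrays. Of 6 smooth muscle markers Acta2 and Cnn1 were called higher, and the list summed to 1210.2 to 1452.2 in knockout and 862.23 to 1129.8 in control arrays. The 6 macrophage markers summed to 840.43 to 1044.5 in knockout and 600.98 to 863.75 in control arrays, with 0 called and 3 higher at that level. The 6 brown fat cell markers were all negative, 5 of them at that level, beside 9.13% of all genes lower. Ucp1 and Dio2 were called lower, and the list summed to 1465.8 to 2501.9 in knockout and 5023.2 to 8656.4 in control arrays. None of these 4 marker calls held without any 1 array, nor did that of any other gene. The 6 cartilage markers summed to 88.489 to 134.9 in knockout and 52.015 to 74.621 in control arrays. Of these 6, 4 had positive differences (the largest 1.19), 1 was higher at an unadjusted p under 0.05 and 0 were called. Matn1 and Cnmd of this list were dim on every array. The 5 mature fat cell markers summed to 5780 to 6008.8 in knockout and 6721.1 to 8103.4 in control arrays, with 5 of 5 differences negative, 5 at an unadjusted p under 0.05 and 0 called by limma. The endothelium, bone, epidermis and Schwann cell lists had 0 called by limma, and 0, 1, 2 and 0 of their genes at an unadjusted p under 0.05. Apart from Matn1, Cnmd and, in the bone list, Dmp1, no gene of these lists was dim. The part of these markers in the collagen result was not tested.

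In adult brown fat no collagen gene passed, and 17 of 44 were higher and 5 lower on both knockout arrays than on both control arrays, beside 21.8% of all genes higher and 20.1% lower. Called genes made up 0.0271% of all genes in this comparison of 2 against 2 arrays, and at an unadjusted p under 0.05 there were 11 members higher and 1 lower, beside 7.75% and 5.83% of all genes. Of the fibrillar class 7 of 11 were higher on both knockout arrays and 1 lower, with a median of 0.39 beside 0.00 over all genes. Col3a1 was 8.45 and 8.27 in knockout against 7.63 and 7.65 in control arrays (0.72, limma adjusted p = 0.127). Col1a2 was 7.13 and 6.89 in knockout against 6.48 and 6.31 in control arrays (0.62, limma adjusted p = 0.191), and Col1a1 was 7.81 and 7.45 in knockout against 7.20 and 7.15 in control arrays (0.45, limma adjusted p = 0.34). These arrays did not overlap, and none of the differences passed. The chains of collagen V differed by 0.39 (Col5a1), 0.52 (Col5a2) and 0.78 (Col5a3). The second, dimmer cluster of Col5a1 overlapped, at 3.27 and 2.94 in knockout against 2.93 and 3.12 in control arrays. That of Col1a2 did not, at 3.87 and 3.83 in knockout against 3.10 and 3.10 in control arrays.

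The main chains of collagen VI and the Col4a1 and Col4a2 pair were higher on both adult knockout arrays without passing, and other chains of these collagens were not. The basement membrane class had 3 of 6 members positive and a median of 0.00. Col6a3 was 6.75 and 6.47 in knockout against 5.77 and 5.74 in control arrays (0.85 ± 0.15, limma adjusted p = 0.119), and had the lowest adjusted p of the members. Col6a1 differed by 0.55 and Col6a2 by 0.64, whereas Col6a4 differed by -0.15, Col6a5 by 0.04 and Col6a6 by -0.16. The second, dimmer cluster of Col6a1 read 4.84 and 5.26 in knockout against 4.06 and 3.96 in control arrays. Col4a1 was 7.11 and 7.09 in knockout against 6.06 and 6.50 in control arrays (0.82, limma adjusted p = 0.162), and Col4a2 was 6.41 and 6.11 in knockout against 5.26 and 5.88 in control arrays (0.69, limma adjusted p = 0.324). Col4a3 differed by -0.11, Col4a4 by -0.19, Col4a5 by -0.07 and Col4a6 by 0.07. Of the fibril-associated collagens, Col12a1 had the widest difference of all members, 1.07, at 5.89 and 6.49 in knockout against 5.45 and 4.78 in control arrays (limma adjusted p = 0.232), and Col14a1 differed by 0.83 (limma adjusted p = 0.145), while Col16a1 differed by 0.01 and Col20a1 by -0.38, lower on both knockout arrays. Col15a1 differed by 0.37 and Col18a1 by 0.00. Of 27 synthesis genes 0 were called, with a median of 0.26. At an unadjusted p under 0.05, 11 were higher and 1 lower, beside 7.75% and 5.83% of all genes. Of the 9 receptors 0 were called, with 3 higher and 0 lower at that level.

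The adult knockout also differed in markers of other cells, with 0 called by limma in any of the marker lists. The 8 fibroblast markers summed to 3475.8 to 3663.2 in knockout and 1797.4 to 2291.2 in control arrays, 7 of 8 being positive. At an unadjusted p under 0.05, 6 of the 8 were higher and 1 was lower, beside 7.75% and 5.83% of all genes. The 6 macrophage markers were all positive (median 1.34), all 6 at that level, and summed to 1305.1 to 1359.8 in knockout and 456.96 to 579.11 in control arrays. The 6 brown fat cell markers were all negative, 3 of them at that level, and summed to 5702.8 to 7498.4 in knockout and 11037 to 13736 in control arrays. Of the 5 mature fat cell markers 4 were negative (2 at an unadjusted p under 0.05), with sums of 7449.7 to 7879.2 in knockout and 8137.8 to 9846.5 in control arrays. Of the 6 endothelium markers 5 were negative (0 at that level), with sums of 791.79 to 832.71 in knockout and 845.29 to 978.63 in control arrays. Of the 6 pericyte and smooth muscle markers 4 were positive and 2 negative (median 0.35), with 1 higher at that level. Their sums overlapped, at 1596.8 to 1725.3 in knockout and 1612.3 to 1674.6 in control arrays. Skeletal muscle markers overlapped, at 75.05 to 136.34 in knockout and 79.208 to 208.2 in control arrays, with Myh3 dim. None of the fibroblast, macrophage, brown fat cell, mature fat cell or endothelium markers was dim. Their part in the collagen values was not tested.

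The knockout effect in the adult minus that in the embryo was tested over all 11 brown fat arrays, with the Cre, the control genotype and the age all differing between the experiments. Of 44 members 0 passed, where 1.99% of all genes did, with 5 higher and 2 lower at an unadjusted p under 0.05, beside 8.82% and 7.46% of all genes. The collagen I and III differences were close: Col1a1 had 0.45 in the adult and 0.60 in the embryo, Col1a2 0.62 and 0.67, and Col3a1 0.72 and 0.63. The collagen IV pair lay further apart, Col4a1 with 0.82 in the adult and 0.07 in the embryo (difference 0.75, limma adjusted p = 0.221) and Col4a2 with 0.69 and -0.11 (0.80, limma adjusted p = 0.255), without passing. Col6a6, a minor chain of collagen VI, went the other way (-0.76, limma adjusted p = 0.185). One synthesis gene passed: Plod2, a lysyl hydroxylase that sets the cross-links of collagen fibres, had 6.63 and 6.03 in adult knockout against 3.52 and 3.63 in adult control arrays. In the embryo Plod2 read 7.24, 7.05, 7.43 and 7.59 in knockout against 6.93, 6.20 and 5.91 in control arrays, and the difference between the 2 effects was 1.78 ± 0.38 (limma adjusted p = 0.0445). This call held only without embryonic control replicate 1 or embryonic control replicate 3, and was lost without any 1 of the other 9 arrays (limma adjusted p of 0.034 to 0.11 over the 11 omissions). Of the marker lists, only the macrophage genes Adgre1 (1.33, limma adjusted p = 0.00462) and Csf1r (1.15, limma adjusted p = 0.0129) passed. Both held over all 11 omissions. All 6 macrophage differences were positive (median 1.02), and all 8 skeletal muscle differences were negative (median -1.52) with 0 called. The part of these markers in the collagen and Plod2 values was not tested.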

How the data were processed

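Total RNA was read on 19 Affymetrix arrays. The authors deposited 1 table of log2 values. The submitters' processing notes name RMA, which corrects background, equalises array distributions and summarises probes on a log2 scale, and Transcriptome Analysis Console, with no version. For the build and the gene models, no statement was found in the sources used here. Of 41345 transcript clusters, 23521 had 1 gene symbol in the platform annotation, 1814 several and 16010 none, and the brightest cluster of each symbol was kept (22180 genes). Col5a1, Col6a1 and Col1a2 had more than 1 cluster. No dim gene was left out, and a gene was called dim where every array was under its own lower quartile.

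R 4.3.3 with limma 3.58.1 was used for all tests (a moderated linear model, two-sided tests), with Benjamini-Hochberg adjustment over all genes. The cell day and genotype comparisons shared a fit of 4 groups, the 4 knockout and wild-type pairs a fit with the pair as a block, and each brown fat experiment its own fit, except that their difference used all 11 arrays. The pairs share title day and replicate number, and same-numbered arrays deviated together (r = 0.353 on day 0 and 0.296 on day 2). Values after ± are SEs. Summed marker signals are sums of 2 raised to the log2 value. The members, class, pathway and marker lists and the rule for the genes named (called members, and chains of collagens I, III, IV, V, VI, XV and XVIII) were chosen with earlier results of these data known. Of 30 synthesis genes 27 and of 10 receptors 9 were measured. The fits were tested on simulated data. Alternatives were other days, other filters, cluster means, trend and robust fitting, quantile normalization, a fit of all arrays, the replicate block and leaving out arrays. Promoters are from RefSeq, and the other 9 members have no entry in the table used.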

Additional observations from a re-analysis of the deposited data

Results flagged for a closer look

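In the embryonic knockout group of 4 arrays, where single arrays can be compared with the other 3, the 44 collagen genes and Med1 were examined and 4 genes had 1 array far from the rest. Chance flags about 1 group in 20 where values are not tied, and 45 genes were examined. Col11a1 was 3.83 in replicate 1 and 3.66 to 3.67 in the others. Col28a1 was 3.37 in replicate 2 and 3.02 to 3.05 in the others. In replicate 4, Col4a3 was 2.71, with the others all at 2.93, and Col7a1 was 3.73, with the others all at 3.85. None of these genes passed the embryonic test. Identical values on several arrays, as in Col4a3 and Col7a1, were common in the embryonic table. Where 3 values are identical, any other value on the remaining array is flagged, so the flags of Col4a3 and Col7a1 carry no information beyond the ties.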

How the results depend on the processing

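The number of members called moved as follows. Over the 4 pairs of cell arrays it was 1 in place of 0 with trend and robust fitting (Col5a2) and 1 with all 19 arrays in a single fit (Col11a1). For knockout against wild-type cells on day 2 it was 1 in place of 0 with trend and robust fitting (Col6a3, limma adjusted p = 0.0337) and 1 with the replicate block (Col6a3, limma adjusted p = 0.0349), and its limma adjusted p ranged up to 0.422 when an array was left out. Over the days, leaving out 1 array gave 3 to 6 in knockout and 7 to 12 in wild-type cells. With days by the source label, which mixes title days, both counts were 0, and reversed values were, in knockout cells, 0.05445 for Col1a2, -0.0530 for Col4a1 and -0.258 for Col4a2, and in wild-type cells, -0.00637 for Col18a1, 0.0232 for Col1a2, -0.03375 for Col4a1, -0.154 for Col4a2 and 0.0173 for Col4a5. In the embryo the count of 3 was 0 to 0 with an array left out, 0 with the replicate block, 5 with dim genes left out and 7 with all arrays in a single fit. In the adult that single fit gave 7 in place of 0. The single fit shares 1 estimate of spread over all experiments and dim genes left out means fewer genes tested. The cause of the other moves was not tested. Calls over all genes moved too under the settings that left out no array. They ranged from 0 to 1527 in place of 257 in the embryo and from 7 to 2049 in place of 6 in the adult. Over the pairs the range was 9 to 245 in place of 64, and on day 2 it was 0 to 120 in place of 59. For the day change it was 0 to 1660 in place of 1265 in knockout and 0 to 2555 in place of 2012 in wild-type cells.

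Over all genes, leaving out an array gave 20 to 32 calls in place of 64 over the pairs, 3 to 40 in place of 41 on day 0, 12 to 47 in place of 59 on day 2, 496 to 1282 in place of 1265 and 1143 to 1714 in place of 2012 over the days in knockout and wild-type cells, 0 to 0 in place of 257 in the embryo and 0 to 0 in place of 6 in the adult. Same-numbered arrays correlated in their deviations at 0.353 (day 0) and 0.296 (day 2) between genotypes, 0.169 over the days in knockout cells and 0.033 in wild-type cells, 0.335 in the adult and -0.021 to 0.314 in the embryo. The replicate block changed no other count by over 1.5 times. The alternative of arrays with the same day in both labels was chosen after seeing the data. Depth is not defined for arrays; dim members cannot show a fall.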
